A study of Saccharomyces cerevisiae with 72 samples.

Results

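The genes described here are 56 ribosome biogenesis genes of the budding yeast Saccharomyces cerevisiae, taken by systematic name from the known subunits of the machinery that makes ribosomes, out of 5424 coding features measured. The rule uses no measured value, although earlier results of these data were known when the genes were chosen. All 56 were found in the RNA-seq tables and all 56 held enough reads to be tested, with 11 to 4247 reads per gene and library and a median of 327. They fall into 11 role groups, ordered below from the modification particles to the late large subunit factors. In transcript leader sequencing (TL-seq), which counts the capped 5′ ends of mRNAs, 45 of the 56 had a cluster of start sites and 11 did not.

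The study followed diploid SK1 cells, a strain background that enters meiosis readily, through the premeiotic phase into meiotic prophase. T99N cells (strain UB22629) carried UME6 with the T99N substitution and a 3V5 tag in place of wild-type UME6, and WT cells (strain UB20649) carried tagged Ume6-3v5. In both, the copper-inducible CUP1 promoter drove IME1, the transcription factor that starts meiosis, and IME4, the mRNA methyltransferase. The IME4 construct and the selection markers differed between the strains. The strain list gives an HA tag on IME1 in both strains and on IME4 in WT cells only. Cells were shifted to sporulation medium (SPO, 1% potassium acetate), received 50 µM CuSO4 after 2 h, and were collected at 0, 2, 3 and 4 h in 3 replicates per strain and time. Strain UB14584 had the same pair of inducible genes, listed without an HA tag, untagged UME6 and a BY4741 allele of AMN1. It gave 4 RNA-seq libraries (4 h and 2 h, 2 each) and 6 TL-seq libraries (3 each). Ume6-3V5 chromatin immunoprecipitation (ChIP-seq) came from a further strain, UB3301, in a saturated culture, before any transfer to SPO. Ume6 represses early meiotic genes in mitotic growth and activates them together with Ime1, and T99N blocks its contact with Ime1. Replicates were numbered in the labels without a statement that they were separate cultures, so p-values measure the spread between these libraries.

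Ribosome production is one of the most costly activities of a growing yeast cell, and its genes are switched off together when nutrients run out. RNA polymerase I makes a long precursor RNA in the nucleolus, and a large particle, the small subunit processome, forms on it while small nucleolar RNPs fold, methylate and pseudouridylate it. After cleavage, separate sets of assembly factors take the small and large subunit precursors through folding, helicase and GTPase steps to export. The promoters of these genes are known for 2 short elements, PAC (polymerase A and C box) and RRPE (ribosomal RNA processing element). The repressors Tod6 and Dot6 bind PAC and Stb3 binds RRPE.

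Printed here are promoter stretches of 30 bases from 6 members with both elements close together and from 4 members with PAC cores in tandem. They come from the S288C reference R64 (RefSeq annotation) and read 5′ to 3′ on the gene's own strand. Each stretch was placed to hold as many kinds of match, and then as many matches, as possible. They are picked examples and do not show how common the elements are. Capitals mark matches to the PAC core GATGAG or to the RRPE letters GAAAAATTT on either strand, where the reverse complements read CTCATC and AAATTTTTC; the RRPE letters can overlap their own reverse complement.
NSR1 (YGR159C), chrVII:807835-807864, minus strand: gtGAAAAATTTgcaagggcagCTCATCgca
NOP1 (YDL014W), chrIV:427137-427166, plus strand: GAAAAATTTTTCaaattggaaagCTCATCt
NOP58 (YOR310C), chrXV:898471-898500, minus strand: tttggaAAATTTTTCaacCTCATCgaaaat
CBF5 (YLR175W), chrXII:505984-506013, plus strand: atttGAAAAATTTtcaaatGATGAGatgtt
DBP2 (YNL112W), chrXIV:413479-413508, plus strand: cgatgCTCATCgcagaAAATTTTTCcttca
MAK21 (YDR060W), chrIV:570472-570501, plus strand: atGAAAAATTTtttcttttggcGATGAGgt
DBP9 (YLR276C), chrXII:696960-696989, minus strand: ccatCTCATCTCATCTCATCTCATCtcatt
DRS1 (YLL008W), chrXII:131601-131630, plus strand: aaaaaatgcGATGAGATGAGgttgaaaatt
SSF1 (YHR066W), chrVIII:229224-229253, plus strand: acgaagaagCTCATCTCATCgcgatattag
NOC2 (YOR206W), chrXV:727377-727406, plus strand: ttttcttccGATGAGATGAGcatgatattt
By this choice the first 6 hold both elements side by side, and the last 4 hold PAC cores in tandem, up to 4 in DBP9. A stretch of UTP13, placed the same way and not printed, held 1 PAC core and 0 RRPE matches.

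Across the 300 bases before the start codon, the PAC core was present in 53 of 56 members (94.6%), against 19.1% of 6001 promoters. The longer form GCGATGAG, which contains the core, was present in 33 members (58.9%), against 4.05% of all promoters. RRPE was present in 36 members (64.3%), against 6.57%, and every member held at least 1 of the 2 elements, against 22.5% of all promoters. Both elements fell within 30 bases in 26 members (46.4%), against 1.68%, and 22 members (39.3%) held at least 2 PAC cores, against 2.95%. UTP4, UTP15 and SPB1 had no PAC core match in this window. The URS1 core GGCGGC, the letters Ume6 binds, was present in NAN1, MPP10 and RRS1, 5.36% of members and 5.20% of all promoters. These are letter matches in S288C sequence, the cells were SK1, and a match is a description of the sequence and not of binding.

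The matches were not spread evenly through the window. PAC cores began at a median of 119 bases before the start codon (57 to 259, 81 matches), and RRPE at 139 bases (35 to 296, 47 matches). Among the 43 members with both a PAC core and a TL-seq cluster, the PAC core nearest the start codon lay upstream of the middle of the cluster in 42, by a median of 70 bases. The median distance from the cluster to the start codon was 36.5 bases in the 45 members (-15 to 131). It was 50.0 bases over 5009 gene clusters, a set limited to those within 1000 bases of the start codon.

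**Figure D1:**
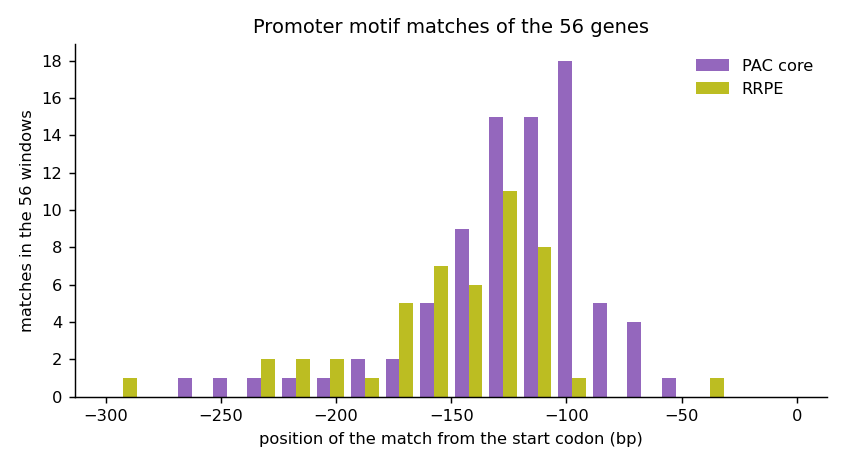
Positions of PAC core and RRPE matches in the promoters of the 56 genes, as numbers of matches (vertical axis) by distance before the start codon in base pairs (horizontal axis, 15-bp bins). The 81 PAC core matches have a median of 119 bp and the 47 RRPE matches a median of 139 bp.

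RNA levels are given as CPM per kb, TMM-scaled CPM divided by the length of the annotated gene in kilobases (introns included for DBP2 and NOG2), and changes as log2 fold changes from edgeR's quasi-likelihood test, where a call means a Benjamini-Hochberg adjusted p under 0.05 over all 5488 features tested. Depth ran from 5013206 to 10368419 reads in T99N libraries, 9087102 to 20865934 in WT libraries, 3124472 to 4845107 in the RNA-seq of UB14584 and 3195012 to 8243174 in TL-seq. The 9 stage markers were IME1, IME4, UME6, IME2, HOP1, SPO11, REC8, DMC1 and ZIP1. IME1 and IME4 were driven by the CUP1 promoter and the UME6 locus differed between strains. The RNA of these genes does not report stage by itself. At 4 h 7 of the 9 were lower in T99N than in WT cells and none higher (median -2.76), beside 30.2% and 22.5% of all features. At 3 h 7 were lower and 1 higher (-2.62), beside 29.4% and 27.6%. At 0 h 6 were higher (1.43) and at 2 h 8 (1.22), beside 18.4% and 21.0% of features, with none lower at either time. DMC1, the meiotic recombinase, had 123, 154 and 175 CPM per kb in T99N cells at 4 h, against 1299, 1270.1 and 1447 in WT cells. The T99N 2 h library of replicate 1 stood apart before copper, with IME1 at 1729 CPM per kb against 68.9 and 84.3 in the other T99N 2 h libraries. UME6 itself had 205, 234 and 207 CPM per kb in T99N cells at 0 h, against 49.4, 59.9 and 60.7 in WT cells. Whether that library's IME1 or the UME6 level had a part in the results below was not tested, and values without the library stand beside the results it touches. In bulk cultures, fewer cells of a kind and less RNA per cell cannot be told apart.

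The 56 genes started high, fell between 0 h and 2 h in SPO and then took different courses by strain. The median member had 38.8, 39.6 and 44.4 CPM per kb in the T99N libraries at 0 h, 20.4, 13.4 and 15.2 at 2 h, 20.6, 18.6 and 22.2 at 3 h, and 10.2, 9.20 and 8.15 at 4 h. In WT libraries it had 37.5, 37.0 and 37.4 at 0 h, 16.0, 14.9 and 13.4 at 2 h, 11.2, 9.35 and 12.5 at 3 h, and 11.3, 11.2 and 13.1 at 4 h. The strains' ranges did not overlap at 3 h, where T99N cells held 20.5 ± 1.80 and WT cells 11.0 ± 1.57 (SD, n = 3 each), and at 4 h T99N cells were at 9.19 ± 1.04 and WT cells at 11.9 ± 1.04. Over all coding features the median stayed between 55.3 and 58.5 CPM per kb in these 8 groups. TMM scaling sets the typical feature to little change, so this steadiness follows largely from the scaling. The members spanned a wide range throughout: in WT cells at 3 h, TIF6 averaged 205 CPM per kb and UTP13 1.60.

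**Figure D2:**
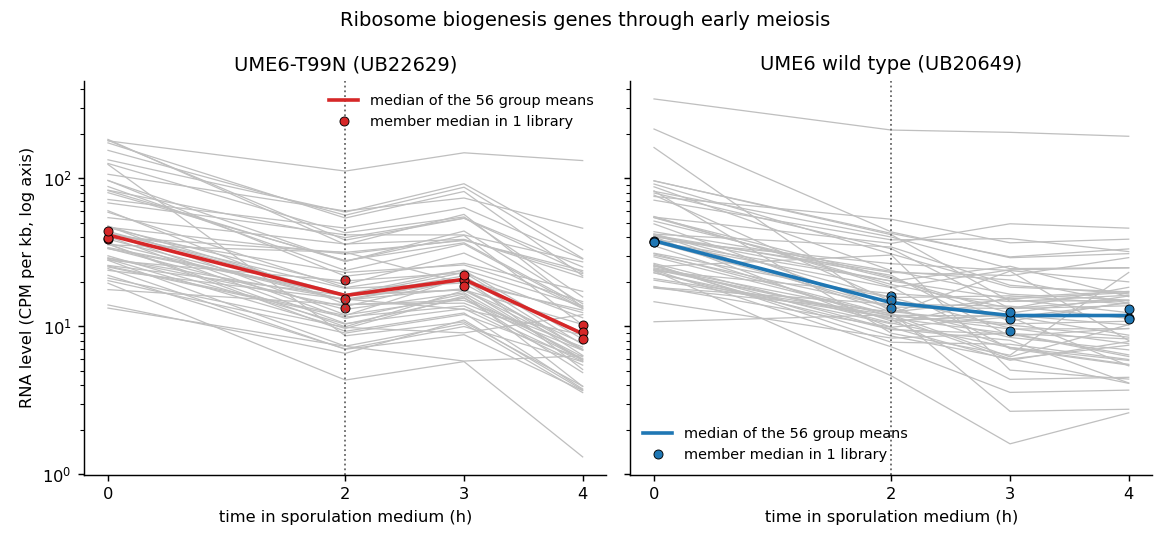
Levels of the 56 genes over the time course in T99N cells (left) and WT cells (right), in CPM per kb on a log axis against hours in SPO, with a dotted line where copper was added. Grey lines are the genes' group means, the coloured line is their median and the points are each library's median, at 20.5 in T99N cells and 11.0 in WT cells at 3 h.

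Nearly the whole set was lower at 2 h in SPO than at 0 h in both strains, and what caused this was not tested. At 2 h against 0 h, 55 of 56 members fell in T99N cells and none rose, with a median of -1.31, while 20.1% of all features fell, 21.8% rose and their median was 0.01. In WT cells 53 of 56 fell and none rose, with a median of -1.16, against 25.0% of features falling, 25.1% rising and a median of 0.01. The same 53 genes (94.6%) fell in both strains, against 16.5% of all features. The libraries of 2 h and 0 h did not overlap, with 2 h lower, in 55 members in T99N cells and 54 in WT cells, against 27.4% and 30.1% of all features.

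NSR1, the yeast nucleolin, which acts in small subunit processing, fell furthest. It had 12.6, 5.64 and 7.59 CPM per kb in T99N cells at 2 h, against 106, 113 and 154 at 0 h, a log2 change of -3.81 ± 0.25 (SE, adjusted p = 1.2e-10). In WT cells it had 8.70, 15.9 and 12.6 at 2 h, against 156, 186 and 142 at 0 h, a change of -3.70 ± 0.24 (adjusted p = 6.3e-11). No 2 h library came near any 0 h library in either strain. DBP2, a DEAD-box RNA helicase, had 24.2, 23.1 and 18.2 in T99N cells at 2 h against 90.7, 92.2 and 107 at 0 h (-2.15 ± 0.17). In WT cells it had 8.72, 9.81 and 8.33 at 2 h against 71.6, 91.4 and 83.5 at 0 h (-3.20 ± 0.18, adjusted p = 1.4e-11), the next largest fall there. DBP2 was the 1 member for which this first change differed between strains. The difference was 1.04 ± 0.24 (adjusted p = 0.047 by the edgeR interaction term), beside 0.237% of all features called higher. No member was called higher when any replicate number was left out of every group, or with RLE or library-total scaling. Without the T99N 2 h library of replicate 1 no member was called higher and 2 were called lower.

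The box C/D particle places methyl groups on rRNA. NOP1, the methyltransferase fibrillarin, had 67.7, 21.5 and 25.4 CPM per kb in T99N cells at 2 h against 164, 179 and 199 at 0 h, a change of -2.22, and -2.31 in WT cells. Its core partner NOP58 had 42.4, 30.7 and 33.8 at 2 h against 173, 192 and 184 at 0 h in T99N cells (-2.36), and 18.0, 12.9 and 13.3 against 72.6, 75.3 and 83.1 in WT cells (-2.39). A further core partner, NOP56 (YLR197W), changed by -1.68 in T99N cells and -1.88 in WT cells. The T99N 2 h library of replicate 1 was the highest of its group for NOP1 and NOP58. In the box H/ACA particle, which makes pseudouridine, the synthase CBF5 changed by -1.55 in T99N cells and -1.25 in WT cells, and its partner GAR1 by -1.17 and -0.89.

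In the small subunit processome, the 6 genes listed here from the UtpA complex, which binds the start of the precursor RNA, all fell in both strains. The 6 listed from UtpB, which binds next, did so too. UtpA ranged in WT cells from -1.74 for UTP15 to -0.53 for UTP4, and UtpB from -2.36 for UTP13 to -0.81 for UTP6. Of the 5 genes tied to the U3 particle, which pairs with the precursor RNA, 5 fell in T99N cells and 4 in WT cells, where SOF1 had -1.69 and MPP10 -0.29 (adjusted p = 0.064). UTP20 (YBL004W), a large scaffold protein of the processome, changed by -0.34 in T99N cells, and in WT cells it had 0.15 ± 0.11 (adjusted p = 0.27), against the direction of the rest.

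On the large subunit side all 19 genes of the Noc, PeBoW, GTPase and other precursor groups fell in both strains. NOC2, which pairs with Mak21 and with Noc3 on early precursors, changed by -1.90 in T99N cells and -2.04 in WT cells, and MAK21 itself by -0.72 and -0.80. The GTPase NOG2 had -2.09 in T99N cells and -1.91 in WT cells, and NUG1 -1.51 and -1.21. YTM1 and ERB1, which with NOP7 form the PeBoW complex of large subunit maturation, had -1.09 and -1.36 in T99N cells and -1.36 and -1.15 in WT cells. SPB1, an rRNA methyltransferase, had -1.95 in T99N cells and -1.73 in WT cells, and RRS1, which brings in the small ribosomal RNA of the large subunit, -0.81 and -0.52. DRS1, a helicase of large subunit assembly, was not called in either strain: it had 22.2, 32.6 and 40.0 CPM per kb in T99N cells at 2 h against 31.5, 34.6 and 40.3 at 0 h (-0.17 ± 0.23, adjusted p = 0.58), and 29.4, 30.7 and 30.7 in WT cells against 23.5, 23.9 and 28.5 (0.26 ± 0.22, adjusted p = 0.35).

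**Figure D3:**
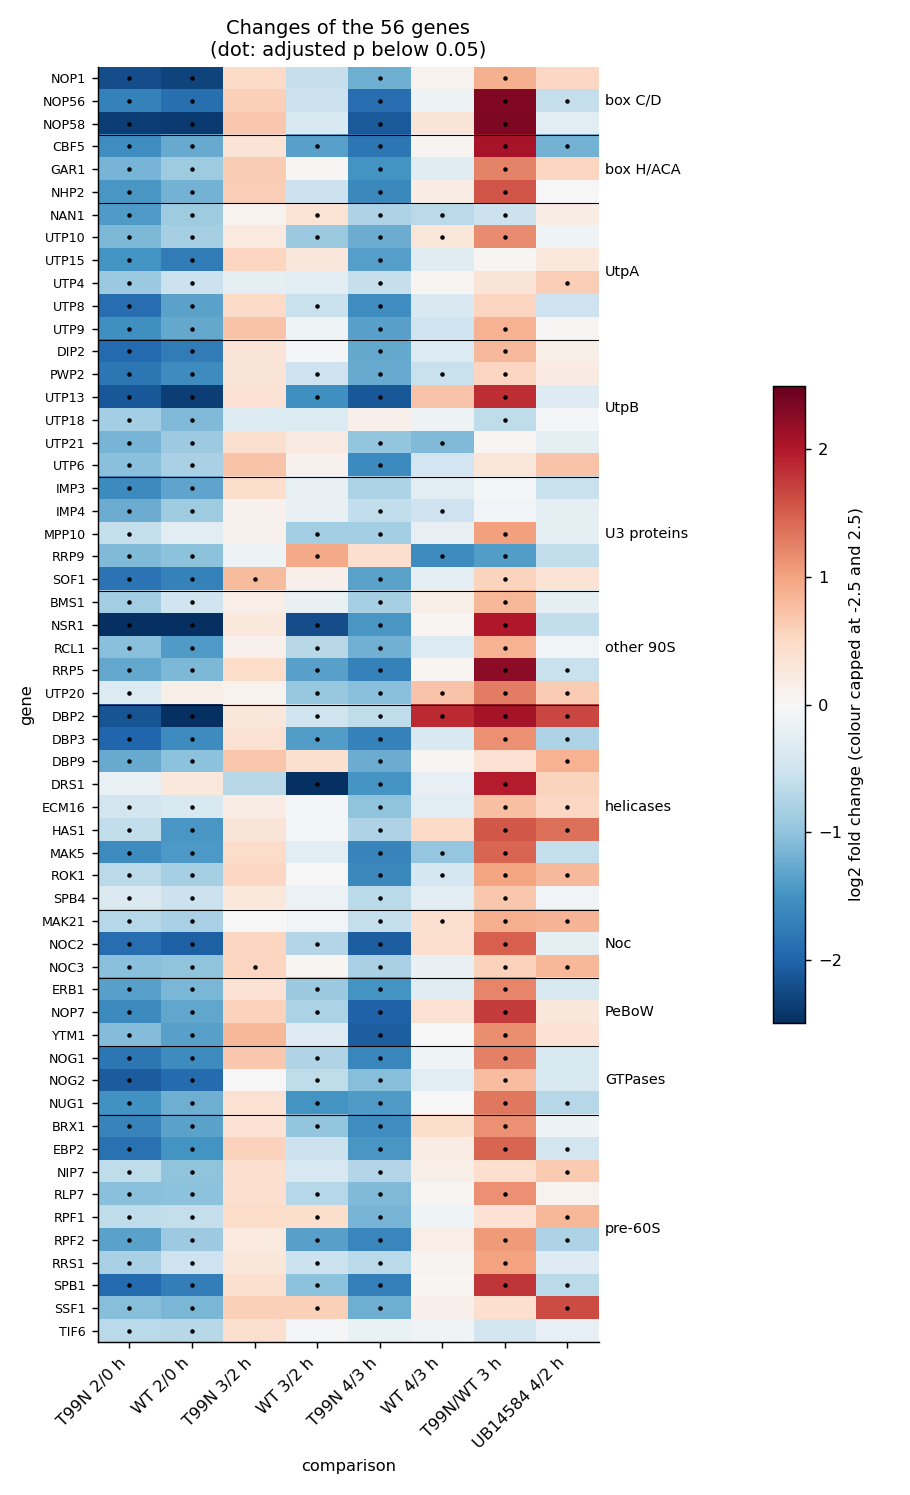
Log2 fold changes of the 56 genes (rows, by role group) in 8 comparisons (columns), with a dot where the adjusted p was under 0.05. At 2 h against 0 h 55 of 56 cells in the T99N column and 53 of 56 in the WT column are called lower, and at 3 h 41 are called higher in T99N than in WT cells.

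In the first hour after copper the strains parted. In T99N cells 3 h against 2 h gave 2 members higher and none lower, with a median of 0.39, while 1.17% of all features rose and 3.35% fell, with a median of 0.02. The 2 were SOF1, a U3 particle protein, at 0.80 ± 0.21 (adjusted p = 0.040) and NOC3, a partner of Noc2, at 0.54 ± 0.13 (adjusted p = 0.031), and 51 of 56 changes were above 0. This count rested on the T99N 2 h library of replicate 1, with its high IME1. Without it, 31 members were higher and 1 lower with a median of 0.65, beside 682 and 613 of 5493 features. With the replicate number as a block 6 members were higher, beside 88 of 5488 features. Without replicate 2, or without replicate 3, of every group no feature was called. In WT cells 24 members fell and 4 rose, with a median of -0.45, against 31.2% of all features falling, 35.0% rising and a median of 0.05, so the share of members called lower was 42.9% and that of members called higher 7.14%. With scaling by library totals alone the WT median was 0.17, with 16 members higher and 8 lower. With that scaling 3386 of 5488 features were higher and 762 lower, and their median was 0.66.

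The genes that fell in WT cells after copper included DRS1, which had held through the transfer. DRS1 had 26.8, 13.5 and 18.0 CPM per kb in T99N cells at 3 h against 22.2, 32.6 and 40.0 at 2 h, libraries that overlap (-0.70, not called). In WT cells it had 4.59, 3.98 and 6.56 at 3 h, against 29.4, 30.7 and 30.7 at 2 h, a change of -2.60 ± 0.24 (adjusted p = 4.5e-09). NSR1 had 2.95, 2.67 and 2.35 at 3 h in WT cells, all below its 2 h libraries of 8.70, 15.9 and 12.6 (-2.22 ± 0.25, adjusted p = 1.0e-07). UTP13 (YLR222C) of UtpB was the next, at 1.79, 1.38 and 1.63 at 3 h against 4.52, 4.32 and 5.01 at 2 h in WT cells (-1.53 ± 0.32, adjusted p = 0.00028). CBF5 changed by -1.36 in WT cells, with 10.7, 9.43 and 19.3 CPM per kb at 3 h against 37.2, 35.6 and 27.4 at 2 h.

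The 4 WT members that rose in that hour were RRP9 (YPR137W), a U3-specific protein, at 0.96 ± 0.16 (adjusted p = 2.2e-05), SSF1, a large subunit assembly factor, at 0.60, RPF1 of the same step at 0.44 and NAN1 of UtpA at 0.33. RRP9 had 24.5, 20.3 and 25.9 CPM per kb at 3 h in WT cells, against 12.9, 11.2 and 12.3 at 2 h. Its WT 3 h libraries lay above its 2 h libraries and near its 0 h libraries of 24.5, 24.5 and 25.4. Without replicate 2, or without replicate 3, of every group 1 WT member was called higher.

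The difference between strains in this hour was tested with an interaction term, T99N change minus WT change. Of 56 members 31 were higher and 1 was lower, with a median of 0.81, beside 21.9% of all features in each direction and a median of -0.02. The largest were NSR1 at 2.49 ± 0.36 (adjusted p = 7.4e-06), DRS1 at 1.89 ± 0.33 (adjusted p = 6.6e-05) and UTP13 at 1.89 ± 0.45 (adjusted p = 0.0018), and RRP9 was lower at -1.09 ± 0.24 (adjusted p = 0.00072). Without the T99N 2 h library of replicate 1 the counts were 42 and 1, and without replicate 2 of every group 17 were higher. With scaling by library totals alone 16 were higher and 2 lower, beside 610 and 2165 of 5488 features, whose median was -0.46.

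At 3 h itself the members were higher in T99N than in WT cells in most role groups. Of 56, 41 were higher and 3 lower, with a median of 0.99, beside 27.6% of all features higher, 29.4% lower and a median of -0.01. Libraries did not overlap, with T99N higher, in 45 members, against 27.1% of all features. This comparison does not use the doubted 2 h library in its means, and without it in the fit 46 were higher and 3 lower. The strains already differed at 0 h, where 17 members were higher and 3 lower in T99N cells (median 0.23, beside 18.4% and 18.6% of all features), although without replicate 2 of every group those counts were 3 and 0. At 2 h 10 were higher and 5 lower (median 0.06, beside 21.0% and 20.9%), and without the T99N library of replicate 1 these were 7 and 22. NOP58 and DBP2 were the highest at 2 h, at 1.28 each, and the lower ones were TIF6 at -0.92, UTP18 at -0.63, DBP3 at -0.62, NUG1 at -0.57 and RPF2 at -0.53.

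NOP58 and NOP56 of the box C/D particle had the largest 3 h differences. NOP58 had 58.0, 40.6 and 72.5 CPM per kb in T99N cells against 7.95, 7.37 and 18.9 in WT cells, a difference of 2.34 ± 0.29 (adjusted p = 6.6e-07). NOP56 followed at 2.32 and RRP5 (YMR229C), an RNA-binding scaffold used by both subunits, at 2.24 ± 0.15 (adjusted p = 1.4e-10). RRP5 had 20.02, 21.0 and 20.6 in T99N cells against 4.34, 3.74 and 5.03 in WT cells, and CBF5 had 67.8, 37.7 and 58.9 against 10.7, 9.43 and 19.3. NOP58 and NOP56 were already higher at 0 h, by 1.25 and 0.99. The third box C/D member, NOP1, differed by 0.88 at 3 h, below the median of the members. WT replicate 3 lay above the other WT libraries at 3 h in NOP58, NOP56 and CBF5, and below the T99N libraries all the same.

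The 3 exceptions at 3 h were RRP9, lower in T99N cells by 1.39 on the log2 scale (SE 0.17, adjusted p = 4.1e-07), UTP18 of UtpB at -0.63 and NAN1 at -0.53. RRP9 had 11.3, 7.19 and 8.50 CPM per kb in T99N cells against 24.5, 20.3 and 25.9 in WT cells. UTP18 and TIF6 (YPR016C), the anti-association factor eIF6 that keeps the subunits apart, were lower in T99N cells already at 0 h, by 0.88 and 0.94. NIP7, a large subunit factor, was lower at 0 h too, by 0.77. All 9 helicases had positive values at 3 h and 8 were called, DBP9 being the exception at 0.38.

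Between 3 h and 4 h nearly all members fell in T99N cells. At 4 h against 3 h 52 of 56 members fell in T99N cells and none rose, with a median of -1.26, while 9.24% of all features fell, 4.99% rose and their median was -0.00. The libraries of 4 h and 3 h did not overlap, with 4 h lower, in 53 members, against 18.8% of all features. In WT cells 7 members fell and 4 rose, with a median of -0.09, beside 18.1% of features falling and 20.6% rising.

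The T99N falls at 4 h reached every role group. UTP13 had 1.28, 1.25 and 1.39 CPM per kb at 4 h against 6.78, 5.93 and 4.58 at 3 h (-2.13 ± 0.36, adjusted p = 0.00028). NOP58 had 13.9, 14.3 and 12.01 at 4 h against 58.0, 40.6 and 72.5 at 3 h (-2.09 ± 0.29, adjusted p = 4.4e-05). NOC2 had 4.08, 3.41 and 4.25 against 17.2, 14.0 and 18.3 (-2.07 ± 0.21, adjusted p = 1.2e-06), with no library of 4 h near one of 3 h in these 3 genes. DRS1 fell here too, to 5.94, 8.75 and 6.28 at 4 h (-1.48 ± 0.24, adjusted p = 0.00022). The 4 not called were UTP18 at 0.13, RRP9 at 0.42, IMP3, a U3 particle protein, at -0.79, and TIF6 at -0.17.

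In WT cells DBP2 turned back up in this hour. It had 19.2, 22.1 and 28.0 CPM per kb at 4 h against 6.08, 4.86 and 8.14 at 3 h (1.86 ± 0.17, adjusted p = 6.7e-08), and UTP20 (0.72), MAK21 (0.40) and UTP10 of UtpA (0.31) rose with it. RRP9 reversed its earlier rise, with 7.99, 7.13 and 8.84 at 4 h against 24.5, 20.3 and 25.9 at 3 h (-1.56 ± 0.16, adjusted p = 2.6e-07). UTP21 of UtpB fell by 1.11 and MAK5, a helicase of the large subunit pathway, by 0.97. Without replicate 2 of every group 2 were called higher and 4 lower, and without replicate 1 the 7 called lower were 4.

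At 4 h fewer members differed between the strains. Of 56 members 5 were higher and 17 lower in T99N than in WT cells, with a median of -0.16, beside 22.5% and 30.2% of all features and a median of -0.06. The members higher in T99N cells were MAK5 at 0.75, DRS1 at 0.67, RRP9 at 0.59, RRP5 at 0.49 and MPP10 at 0.38, and the lower ones included UTP15 at -1.05, NOC2 at -0.996 and UTP13 at -0.996. Without replicate 2 of every group the counts were 1 and 8, and without replicate 3 they were 8 and 10.

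Over the whole interval after copper, 4 h against 2 h, 40 members fell and none rose in T99N cells (median -0.87, beside 14.0% of features falling and 11.2% rising). In WT cells 28 fell and 3 rose (median -0.46, beside 31.0% falling and 34.2% rising). In T99N cells 35 fell and 1 rose without the 2 h library of replicate 1, and 24 fell without replicate 1 of every group. There were 25 members (44.6%) called lower in both strains, against 10.7% of all features. WT cells had DBP2 (1.36 ± 0.17, adjusted p = 5.6e-07), SSF1 (0.73 ± 0.24, adjusted p = 0.012) and MAK21 (0.33 ± 0.14, adjusted p = 0.040) called higher, of which 1 was left without replicate 2, or without replicate 3, of every group. Their deepest falls were DRS1 at -2.80, NSR1 at -2.16 and the helicase DBP3 at -1.77.

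The role groups held wide ranges over this interval in WT cells. Box C/D ran from -0.68 for NOP56 to -0.05 for NOP58, box H/ACA from -1.29 for CBF5 to -0.27 for GAR1, UtpA from -0.93 for UTP8 to -0.02 for UTP15, and UtpB from -1.07 for PWP2 to -0.38 for UTP6. In the U3 group MPP10 had -1.06 and SOF1 -0.10, and among the other processome factors BMS1, a GTPase, had -0.05. On the large subunit side all 3 GTPases fell, NUG1 by 1.47 and NOG1 by 0.85. ERB1 fell by 1.22, against -0.32 for its partner YTM1, and RPF2, which works with Rrs1, fell by 1.19, against -0.14 for TIF6 and -0.15 for NOC3. ECM16, a helicase that acts on the U3 pairing, had -0.32.

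Over the same interval 2 members were higher and 11 lower in the interaction of strain and time, beside 18.3% and 20.6% of all features. The 2 were NSR1 (0.97 ± 0.38, adjusted p = 0.048) and RRP9 (0.89 ± 0.24, adjusted p = 0.0052), and the lowest were DBP2 (-1.70 ± 0.24, adjusted p = 1.2e-05), NOP58 (-1.36 ± 0.41, adjusted p = 0.012) and SSF1 (-1.34 ± 0.35, adjusted p = 0.0048). Without the T99N 2 h library of replicate 1 the counts were 5 and 9, and without replicate 1 of every group 5 were lower. With library totals alone none was higher and 23 were lower, beside 477 and 1953 of 5488 features.

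MAK21, a Noc complex protein of early large subunit precursors, was the member for which the study lists a second, distal start site. In SK1 coordinates as the files give them, its coding region spans chrIV:568292-571369 on the plus strand. The distal TL-seq cluster lies at chrIV:567686-567760 with a leader of 569 bases, and the proximal one at chrIV:568213-568251 with a leader of 60 bases. The distal cluster had 181, 157 and 221 normalized reads at 4 h in UB14584 against 18.5, 16.4 and 32.0 at 2 h, a difference of 3.05 on the log2(value + 1) scale, given as a description because the locus was picked on these libraries. The proximal cluster had 5.22, 2.11 and 13.5 at 4 h against 7.58, 15.5 and 22.5 at 2 h, libraries that overlap (-1.19 ± 0.68, adjusted p = 0.19 by limma). In the S288C promoter printed above, the MAK21 PAC core begins 155 bases and its RRPE 175 bases before the start codon, distances between those of the 2 clusters.

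The stretch between the 2 starts was also measured by RNA-seq, in libraries that had no part in the choice of the locus. It had 15.0, 14.8 and 17.5 CPM per kb in T99N cells at 4 h against 17.7, 28.4 and 28.1 at 2 h (-0.63, adjusted p = 0.12), and 41.3, 49.3 and 46.1 in WT cells at 4 h against 21.3, 10.4 and 11.6 at 2 h (1.66 ± 0.28, adjusted p = 2.3e-05). The 4 h and 2 h libraries of WT cells did not overlap, and the changes differed between the strains (-2.29 ± 0.41, adjusted p = 0.00014). The coding region had 27.1, 27.2 and 27.3 in T99N cells at 4 h against 38.7, 43.8 and 41.9 at 2 h (-0.61), and 27.1, 27.1 and 33.1 in WT cells at 4 h against 24.3, 22.6 and 22.3 at 2 h (0.33 ± 0.14, adjusted p = 0.040), with an interaction of -0.94 ± 0.20 (adjusted p = 0.00071). Reads over the coding region count both transcripts together. MAK21's partners in WT cells had -0.32 for NOC2 and -0.15 for NOC3 over the same interval, neither called.

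**Figure D4:**
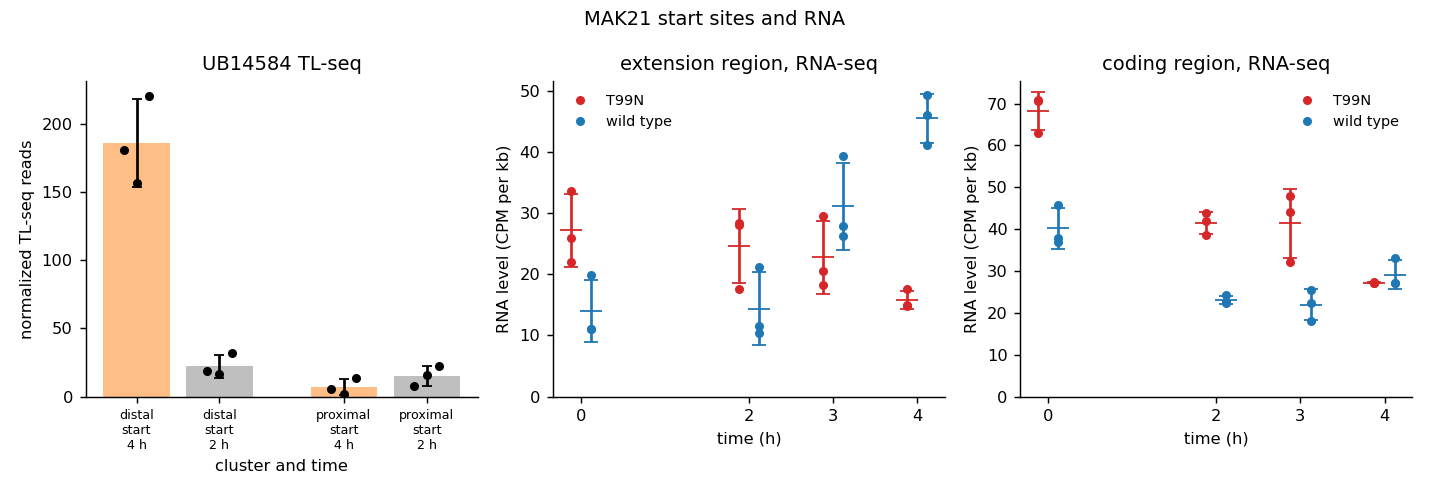
MAK21 transcripts. Bars give normalized TL-seq reads of the distal and proximal start clusters in UB14584 at 4 h and 2 h (mean and SD, points are libraries, n = 3), and the other panels give CPM per kb of the extension and of the coding region in T99N and WT cells by hours in SPO, with the same marks. The extension is at 41.3 to 49.3 in WT cells at 4 h, above all T99N libraries of that time, and the coding region is at 27.1 to 27.3 in T99N and 27.1 to 33.1 in WT cells.

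Strain UB14584 gave a more divided picture over the same interval. At 4 h against 2 h 12 members rose and 8 fell in its RNA-seq, with a median of -0.07, beside 26.6% and 26.8% of 5377 features and a median of -0.02, with 2 libraries per time. Leaving out either 4 h library left 7 higher and 1 lower, with the lone 4 h library assumed to vary like the 2 h ones. In TL-seq 10 of the 45 members with a cluster rose and 3 fell (limma on log2 values, adjusted p under 0.1), with a median of -0.18, beside 24.6% and 23.8% of 5114 clusters and a median of 0.03. With the replicate number as a block 10 rose and 5 fell. Without replicate 1, 4 rose, and without replicate 3 none fell.

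DBP2 and SSF1 were high at 4 h in both assays of UB14584 and in WT cells. DBP2 had 17.9 and 19.3 CPM per kb at 4 h against 4.95 and 6.67 at 2 h (1.67 ± 0.20, adjusted p = 0.0011 by edgeR), and 383, 270 and 147 normalized TL-seq reads at 4 h against 26.1, 43.8 and 47.4 at 2 h (2.68 ± 0.38, adjusted p = 0.00047). SSF1 had 55.6 and 50.3 CPM per kb at 4 h against 16.4 and 17.8 at 2 h (1.63 ± 0.16, adjusted p = 0.00052), and 2.08 in TL-seq. The helicase HAS1, which acts in both subunit pathways, had 31.6 and 29.9 at 4 h against 9.25 and 14.3 at 2 h (1.38), and in WT cells 0.43, not called. CBF5 fell in RNA-seq, with 21.4 and 22.6 at 4 h against 44.6 and 54.6 at 2 h (-1.17 ± 0.17, adjusted p = 0.0020), and in TL-seq by 0.88. The other RNA-seq falls were DBP3 at -0.78, RPF2 at -0.77, NUG1 at -0.71, SPB1 at -0.67, NOP56 at -0.60, RRP5 at -0.56 and the large subunit factor EBP2 at -0.46. DRS1 had 0.56, not called.

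Some members had a call in TL-seq and none in RNA-seq. UTP6 and GAR1 had 1.30 each in TL-seq and 0.70 and 0.54 in RNA-seq, neither called, and BMS1 had -1.31 in TL-seq and -0.25 in RNA-seq. IMP3 fell by 0.75 in TL-seq. MAK21's coding region rose by 0.85 ± 0.12 in RNA-seq (adjusted p = 0.0020 by edgeR). Its proximal start cluster had -1.19, not called, from few reads: 5.22, 2.11 and 13.5 normalized reads at 4 h. The RNA-seq and TL-seq libraries come from the same strain but were not scaled together. Set against WT cells, DBP2, SSF1 and MAK21 were called higher in both strains, and ROK1, a helicase of the small subunit pathway, was lower in WT cells (-0.45) and higher in UB14584 (0.80).

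**Figure D5:**
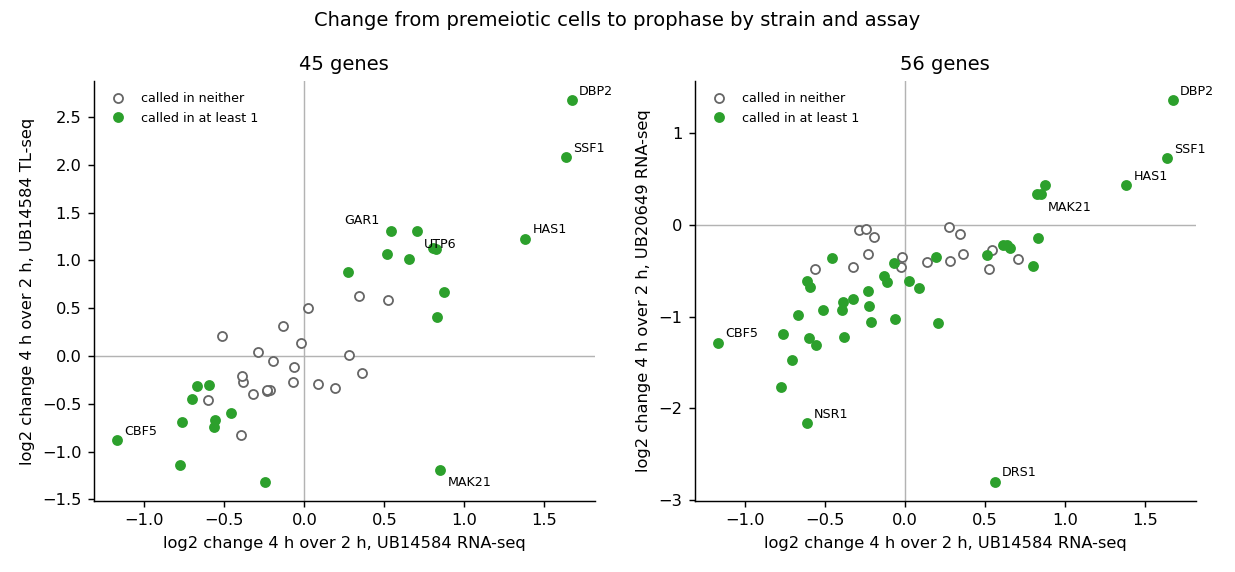
Log2 changes at 4 h against 2 h, 1 point per gene. The left panel sets TL-seq (vertical) against RNA-seq (horizontal) in UB14584 for 45 genes and the right panel sets WT cells against UB14584 for 56 genes in RNA-seq, filled points being called in at least 1 of the 2, with DBP2 at 2.68 in TL-seq, 1.67 in the RNA-seq of UB14584 and 1.36 in WT cells.

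Ume6 was bound at about as many members' promoters as at promoters in general. In the saturated culture, 7 of the 45 members with a start cluster (15.6%) had a peak above 4-fold enrichment within 300 bp of the cluster in at least 2 of 3 replicates, against 14.2% of 5027 genes. BRX1, a large subunit factor, had a fold enrichment of 15.9 ± 3.06 (SD, n = 3), GAR1 10.003 ± 3.36, NOP58 8.62 ± 3.94, MPP10 8.55 ± 2.12 and NOP1 4.83 ± 0.533, and MAK21 and NIP7 had a peak in 2 of 3 replicates. The peak at the distal MAK21 start had 20.4, 11.7 and 15.0. Within 150 bp the count was 3, against 7.08% of all genes. These peaks come from another strain and from cells before SPO.

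Genes of the same pathway outside the 56 were also counted. Of 45 further assembly factors 42 fell at 2 h against 0 h in T99N cells (median -1.02), beside 20.1% of all features. In WT cells 34 fell and 1 rose (-0.80), beside 25.0% and 25.1%. At 3 h 32 were higher in T99N than in WT cells and none lower (0.70), beside 27.6% and 29.4%. Of 8 genes of RNA polymerase I and its initiation factor, 7 fell in each strain at 2 h (medians -1.05 in T99N and -1.02 in WT cells), beside those same shares of falling features. At 4 h against 3 h 6 fell in T99N cells (-1.20), beside 9.24% of all features. Ribosomal protein genes, the proteins that these factors assemble, did not follow at the transfer. Of 103, 61 rose in T99N cells at 2 h (0.66) and 97 in WT cells (1.28), none falling, beside 21.8% and 25.1% of features rising. In the next hour none was called in T99N cells (median -0.05), beside 1.17% of features rising and 3.35% falling. In WT cells 102 fell and 1 rose (-2.95), beside 31.2% and 35.0%. At 4 h against 3 h 86 rose again in WT cells and none fell (1.17), beside 20.6% of features rising. Many ribosomal proteins are encoded by near-identical pairs, between which reads may be split unevenly. Their transcripts took 1.03% to 1.23% of reads in T99N cells at 3 h and 0.267% to 0.484% in WT cells. At 4 h the ranges overlapped, at 0.610% to 0.760% in T99N cells and 0.503% to 0.813% in WT cells.

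Of 8 regulators of growth genes, 3 were higher and 1 was lower in T99N than in WT cells at 3 h (37.5% and 12.5%, beside 27.6% and 29.4% of all features), and in the interaction at 3 h against 2 h 2 were higher and 2 lower (25.0% each, beside 21.9% each). TOD6, the PAC-binding repressor, fell at 2 h, with a change of -0.85 in T99N cells and -1.001 in WT cells, and at 3 h it had 58.3, 63.6 and 65.7 CPM per kb in T99N cells against 24.1, 26.4 and 29.995 in WT cells (1.22, adjusted p = 1.1e-08). STB3, the RRPE-binding repressor, had 189, 228 and 253 in T99N cells at 3 h against 235, 264 and 322 in WT cells, and its change at 3 h against 2 h differed between strains (-0.89, adjusted p = 0.00036). DOT6, the paralogue of TOD6, was higher in T99N than in WT cells at 4 h by 1.30, and SFP1, an activator of growth genes, at 3 h by 0.69. RNA of a regulator is not its activity, which is largely set by its location and phosphorylation. Members with RRPE letters (36 genes) had a median change of -1.52 at 2 h against 0 h in T99N cells and -1.32 in WT cells. The 20 without had -1.05 and -1.03. At 4 h against 2 h the medians were -0.98 with and -0.72 without RRPE in T99N cells, and -0.45 and -0.47 in WT cells. For the PAC core at 2 h against 0 h the split went the other way. Medians were -1.28 with (53 genes) and -1.49 without (3 genes) in T99N cells, and -1.15 and -1.73 in WT cells. These are descriptions with no test.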

How the data were processed

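Members were matched by systematic name, and the members and gene lists were chosen with earlier results of these data known. RNA-seq used polyA selection and a strand-specific kit. The deposited tables hold expected counts and TPM, which the authors estimated with Salmon for coding features and 5′ extension regions of an SK1 annotation. Expected counts were rounded, while TPM was checked and not tested. The deposited TL-seq signal is reads per start-site cluster (STAR, CAGEr) divided by a size factor per library. Its values were whole multiples of 0.704 to 1.68, the worth of a read, to within 0.02 of a read plus 1e-06 of the value's reads, and edgeR on the recovered reads called 1314 clusters higher and 1224 lower of 5049. The deposited ChIP-seq fold enrichment is the macs2 ratio of immunoprecipitate over input at peak summits, called per replicate. Columns of the authors' own fold changes and p-values were not used, nor were 12 per-sample columns that matched no sample here.

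Features that passed filterByExpr were fitted over 24 libraries as 8 groups with edgeR 4.0.16 quasi-likelihood tests and TMM in R 4.3.3, and UB14584 RNA-seq separately. TL-seq was tested with limma 3.58.1 on log2(value + 1). Calls were at a Benjamini-Hochberg adjusted p of 0.05 for RNA-seq and 0.1 for TL-seq. Scripts were tested on simulated data. Alternatives were RLE, upper-quartile and library-total scaling, no filter, coding features only, DESeq2 1.42.0, a replicate block, only the groups compared, stricter thresholds and leaving out replicates. Same-numbered TL-seq libraries deviated together (correlations 0.159, 0.168 and 0.382), as did WT libraries of 2 h and 0 h (0.100 to 0.565) and of 4 h and 3 h (0.389 to 0.837). Named were MAK21, NOC2, NOC3 and NOP1, and the members of largest and smallest absolute change per role group in WT cells (2 h against 0 h and 4 h against 2 h). Also named were the 3 largest rises and falls per comparison, members against the main direction, and the regulators TOD6, STB3, DOT6 and SFP1. A member picked in a comparison was not always printed with its value there, and the other regulators entered the counts only. BRX1, DBP9, NOP7 and ROK1 were named outside this rule, after their values were seen. Motifs were searched with Python 3.11.15 on both strands of the 300 bases before each start codon.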

Additional observations from a re-analysis of the deposited data

Results flagged for a closer look

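These results were picked out because the change with time differed between T99N and WT cells by a test of the difference itself (edgeR interaction term, T99N change minus WT change, adjusted p under 0.05). No explanation was tested. At 2 h against 0 h, 1 member differed, DBP2 at 1.04. That call was lost when any replicate number was left out of every group. Without the T99N 2 h library of replicate 1 no member was called higher and 2 were called lower. At 3 h against 2 h, 31 members were higher and 1 lower, with NSR1 at 2.49, DRS1 at 1.89, UTP13 at 1.89 and RRP9 at -1.09. At 4 h against 2 h, 2 members were higher, NSR1 at 0.97 and RRP9 at 0.89, and 11 were lower, among them DBP2 at -1.70, NOP58 at -1.36 and SSF1 at -1.34. RRP9, the U3-specific protein, was called against the majority of members in both later intervals. In WT cells it was at 24.5, 20.3 and 25.9 CPM per kb at 3 h, above 12.9, 11.2 and 12.3 at 2 h and above 7.99, 7.13 and 8.84 at 4 h.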

How the results depend on the processing

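Of 370 results for single named members, recomputed under the alternatives, 4447 of 5052 values kept their direction and their side of the threshold, 600 kept the direction and lost the call (262 of these without a replicate), and 5 reversed, all with library totals: in WT cells at 3 h against 2 h PWP2 to 0.11, UTP8 to 0.054, DBP2 to 0.13 and RRS1 to 0.078, and at 4 h against 2 h NAN1 to 0.018.

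With library totals only, the members higher and lower were 16 and 8 in WT cells at 3 h against 2 h, 2 and 12 at 4 h against 3 h, and 6 and 13 at 4 h against 2 h; none was higher in T99N cells at 3 h against 2 h, 1 was lower in T99N than WT cells at 2 h and none higher at 4 h, and the interactions gave 0 higher at 2 h against 0 h, 16 higher and 2 lower at 3 h against 2 h, and 0 higher and 23 lower at 4 h against 2 h. With this scaling the median of all features was 0.66, -0.21 and 0.41 in the 3 WT intervals and -0.29 at 3 h between strains. In the main fit these medians were 0.05, 0.04, 0.03 and -0.01. Of 5488 features, library totals called 3386 higher and 762 lower, 490 and 1525, and 2687 and 972 in those WT intervals. The interactions at 3 h against 2 h and at 4 h against 2 h then called 610 and 2165, and 477 and 1953. With RLE scaling the first interaction gave 0 higher, and with coding features only the last gave 1 higher. With only the groups compared, 2 members were higher in WT cells at 4 h against 3 h, 0 in T99N cells at 3 h against 2 h, 27 higher and 8 lower between strains at 0 h, 3 lower at 2 h, and 2 and 1 higher in the first and last interaction. With DESeq2, 7 were higher and 1 lower in T99N cells at 3 h against 2 h, and 4 lower in the RNA-seq of UB14584.

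At an adjusted p under 0.01, 1, 2 and 1 members were higher in the WT intervals 3 h against 2 h, 4 h against 3 h and 4 h against 2 h, 0 in T99N cells at 3 h against 2 h, 10 higher between strains at 0 h, 6 higher and 3 lower at 2 h, and 3 higher and 10 lower at 4 h. The interactions then gave 0 higher at 2 h against 0 h, 20 higher at 3 h against 2 h, and 1 higher and 7 lower at 4 h against 2 h. With a log2 change beyond 1 in addition to 0.05, the WT intervals gave 0 and 9, 1 and 2, and 1 and 12 higher and lower, T99N cells 0 higher at 3 h against 2 h and 22 lower at 4 h against 2 h, the strains 1 and 0 at 0 h, 4 and 0 at 2 h, 1 lower at 3 h and 0 and 1 at 4 h, and the last interaction 0 and 6. In TL-seq 1 member was lower at an adjusted p under 0.05, and 5 were higher in the second table (replicates 4 and 5). The longer PAC was in 33 members, and Ume6 peaks within 150 bp were at 3.

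With the replicate number as a block, T99N cells had 6 members higher at 3 h against 2 h and TL-seq 5 lower, and 2 of the 370 single results lost their call; no other count moved by over 1.5 times. In every other RNA-seq comparison at least 1 same-numbered correlation was under 0.1, and over all 36 same-numbered pairs of libraries within a strain they ran from -0.353 to 0.837.

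Leaving out replicates in turn gave these ranges of members higher and lower. WT cells had 0 and 46 to 53 at 2 h against 0 h, 1 to 5 and 18 to 30 at 3 h against 2 h, 2 to 6 and 4 to 9 at 4 h against 3 h, and 1 to 4 and 21 to 34 at 4 h against 2 h. T99N cells had 0 and 43 to 54, 0 to 31 and 0 to 1, 0 to 1 and 41 to 53, and 0 to 1 and 24 to 35 in the same intervals. Between strains the ranges were 3 to 20 and 0 to 4 at 0 h, 6 to 13 and 0 to 22 at 2 h, 38 to 46 and 2 to 3 at 3 h, and 1 to 8 and 8 to 20 at 4 h. The interactions had 0 and 0 to 2, 17 to 42 and 1, and 0 to 5 and 5 to 9. UB14584 had 7 to 13 and 1 to 7 in RNA-seq and 4 to 10 and 0 to 2 in TL-seq, and Ume6 peaks were at 5 to 7 members. The cause of these changes was not tested.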

Other observations

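The low end of the set was sampled thinly, since UTP13 at 4 h was at 1.25 to 1.39 CPM per kb in T99N cells and 2.09 to 2.86 in WT cells. TIF6, the most abundant member in WT cells at all 4 times, ran from 135 to 165 CPM per kb in T99N cells at 3 h and from 130 to 134 at 4 h, against 246, 241 and 126 in WT cells at 3 h and 245, 216 and 116 at 4 h, with replicate 3 the low WT library both times.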
